A study of Mus musculus with 9 samples.

Results

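Chemokines and their receptors were followed in PPTR cells, a line of mouse intrahepatic cholangiocarcinoma (iCCA) cells. Control cells were set beside clones made by Cas9 targeting of *Vcam1*. Members were every gene symbol of the deposited table that names a CXC, CC or CX3C chemokine by its number, a receptor of these 3 families, or an atypical chemokine receptor, which gave 58 of 55276 symbols, 37 of them ligands and 21 receptors. All cells came from liver cancer of mice that carried *Prom1CreERT2* and *Rosa-ZsGreen*, so that recombination by the *Prom1*-driven Cre was shared by every group. The 9 libraries formed 3 groups of 3: the control cells, labelled WT, and the *Vcam1* single-cell clones KO1 and KO2, made with a guide against exon 2. Each knockout group is 1 clone, so that an effect of losing *Vcam1* and a property of the cell that founded the clone cannot be told apart within it. The libraries of a group came from different passages, nothing names them as separate cultures, and p values measure only the spread between those libraries.

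Chemokines are small secreted proteins that guide the movement of cells along a gradient. They act through receptors with 7 membrane-spanning segments that signal through Gi proteins, while the atypical receptors bind chemokines without this signal and mostly take them up and remove them. In liver and bile duct tumors, chemokines released by tumor cells are known to draw monocytes, neutrophils and lymphocytes, and the pair of Cxcl12 and Cxcr4 links tumor cells with myofibroblasts.

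Levels are in CPM, counts relative to the TMM-scaled size of the library, and libraries held 53415907 to 125223073 counts. *Vcam1* itself stood at 220 to 329 CPM in WT, 92.4 to 128 CPM in KO1 and 82.9 to 119 CPM in KO2. Its transcript was lower in the clones (log2 fold change -1.36, standard error 0.17, adjusted p = 2.1e-04), which checks the labels only in part, since a frameshift need not remove a transcript. The labelled cell type was checked with biliary epithelial markers. The sum of 9 such markers was 13484 to 15172 CPM in WT, 10540 to 10971 CPM in KO1 and 7564 to 11018 CPM in KO2, but most of the sum in the clones was *Spp1*, and 6 of 8 tested markers were lower in the clones. *Krt19*, a keratin of bile duct cells, fell from 2128 to 2405 CPM in WT to at most 0.226 CPM in any clone library. In KO1 and KO2 the keratins and cadherin that define biliary epithelium were therefore absent or nearly so. Markers of fibroblasts and stellate cells summed to 431 to 837 CPM in WT. They reached 12557 to 15966 CPM in KO1 and 6767 to 9107 CPM in KO2. Over both clones together, 7 of 9 tested markers were higher. In KO1 alone 6 were higher and 1, *Dcn*, was lower (log2 fold change -4.11, adjusted p = 2.22e-04). *Dcn* was at 58.3 to 105 CPM in WT, 2.16 to 8.34 CPM in KO1 and 51.6 to 113 CPM in KO2. Among leukocyte markers *Ptprc* had at most 48 counts in a library, and *Cd3e* and *Nkg7* at most 1, while the myeloid markers *Csf1r*, *Cd68* and *Lyz2* reached 991, 671 and 440. *Lyz2* was at most 0.148 CPM in WT and 3.65 to 4.59 CPM in KO1 (log2 fold change 5.16, adjusted p = 2.01e-05), but 0.0739 to 0.325 CPM in KO2. *Csf1r* fell in both clones together (-3.06, adjusted p = 0.00127). The 14 leukocyte markers summed to 11.0 to 24.6 CPM in WT, 9.37 to 12.2 CPM in KO1 and 7.51 to 11.0 CPM in KO2. Over both clones together, 1 of 7 tested was higher and 4 were lower. In KO2 alone 0 were higher and 5 lower. The 8 endothelial markers summed to at most 4.68 CPM in any library, with 1 of 3 tested higher. The 6 hepatocyte markers summed to 252 to 440 CPM in WT and at most 3.02 CPM in a clone library, and all 5 tested were lower. The part of these shifts in cell state in the chemokine differences was not tested. In bulk RNA, fewer cells that express a gene and less RNA of it in each cell cannot be told apart.

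Of the 58 members, 33 were measured well enough to be tested, 24 ligands and 9 receptors. Each clone was set against WT, the clones against each other, and both clones together (KO, 6 libraries) against WT, all with edgeR's quasi-likelihood test and Benjamini-Hochberg adjustment over the 17672 genes tested. Both clones were compared with the same 3 WT libraries. In KO1, 7 members were higher and 12 lower, where 29.9% of all tested genes were higher and 30% lower. In KO2, 8 members were higher and 9 lower, beside 25.3% and 26.1% of all genes. With both clones together, 6 members were higher and 6 lower, beside 21.7% and 21.2% of all genes. Between the clones, 7 members were higher in KO1 and 9 lower, beside 20.2% and 18.5% of all genes. The median log2 fold change of the tested members was -0.12 in KO1 and 0.54 in KO2, against 0.02 and 0.00 for all tested genes. The results that follow are therefore about which members moved and how far, in a setting where most of all tested genes passed in each clone.

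**Figure D1:**
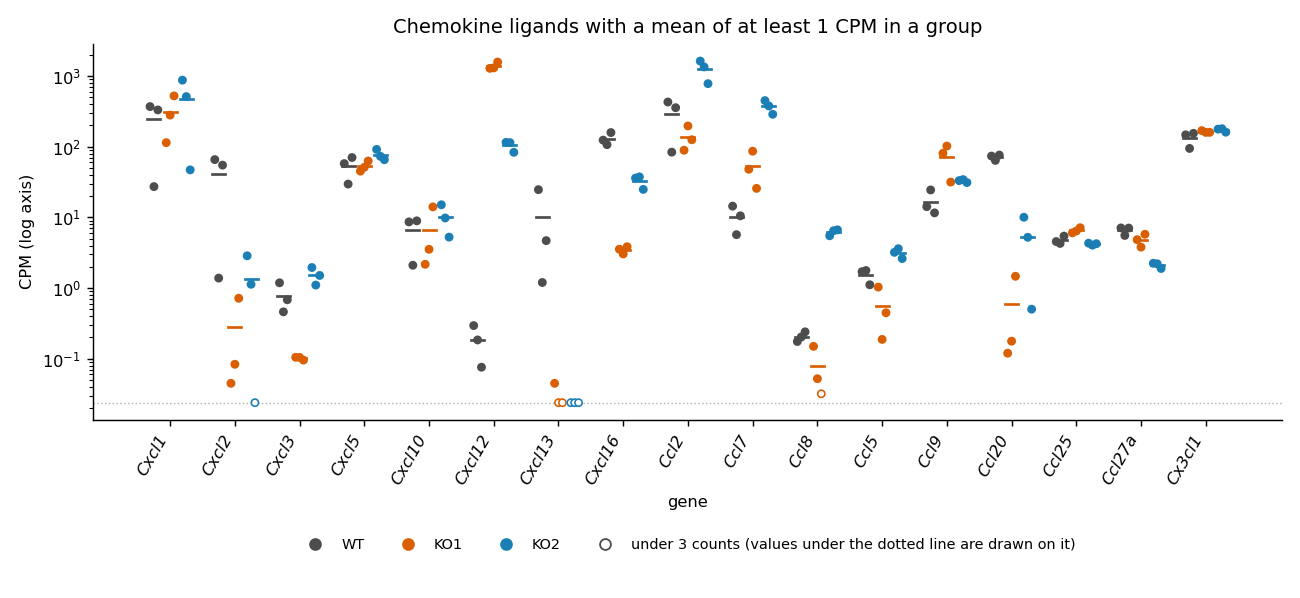
CPM of each library on a log axis for the 17 ligands with a mean of at least 1 CPM in a group, with 3 WT (gray), 3 KO1 (orange) and 3 KO2 (blue) libraries per gene and bars at group means. Open points hold under 3 counts, and values under the dotted line, which marks 3 counts in the deepest library, are drawn on it. *Cxcl12* is at most 0.295 CPM in WT and at least 83.4 CPM in all 6 clone libraries, while *Cxcl13*, *Cxcl16* and *Ccl20* lie lower in both clones.

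The largest increase among the tested members was that of *Cxcl12*, the ligand of Cxcr4 and Ackr3 that retains cells in bone marrow and is a product of fibroblasts in many tumors. The gene lies at chr6:117168535-117181367 on the plus strand of GRCm38. It stood at 0.295, 0.184 and 0.0759 CPM in WT, at 1288, 1307 and 1580 CPM in KO1, and at 115, 114 and 83.4 CPM in KO2. The 3 groups did not overlap, with WT close to no expression, KO2 in the middle and KO1 on top. Against WT, its log2 fold change was 12.79 in KO1 (standard error 0.44, adjusted p = 6.77e-08) and 9.05 in KO2 (standard error 0.40, adjusted p = 2.84e-07). Over both clones it was 11.92 (standard error 1.80, adjusted p = 6.64e-04). KO1 exceeded KO2 by 13.3-fold (log2 difference 3.74, standard error 0.29, adjusted p = 2.58e-05). Because WT held few counts, the size of the change against WT moved with WT replicate 1, and without it was 13.44 in KO1, 9.71 in KO2 and 12.52 in both clones together.

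Both receptors of Cxcl12 were detected in every library. *Ackr3*, the atypical receptor that scavenges Cxcl12, stood at 3.11, 2.75 and 5.20 CPM in WT, at 61.1, 53.7 and 60.3 CPM in KO1, and at 67.6, 61.5 and 55.4 CPM in KO2. The clones overlapped each other and both lay far above WT. The rise was 15.8-fold in KO1 (log2 fold change 3.98, standard error 0.24, adjusted p = 1.06e-06) and 16.7-fold in KO2 (4.06, standard error 0.24, adjusted p = 1.27e-06). Over both clones its log2 fold change was 4.02 (standard error 0.24, adjusted p = 2.77e-06). Between the clones the log2 difference was -0.08 (standard error 0.21, adjusted p = 0.798), although their *Cxcl12* levels differed. *Cxcr4*, the signalling receptor, was at 3.17, 1.92 and 1.29 CPM in WT, at 3.11, 3.27 and 4.15 CPM in KO1, and at 5.91, 5.50 and 3.08 CPM in KO2. The highest WT library reached into the range of both clones. The log2 fold change was 1.18 in KO2 (standard error 0.36, adjusted p = 0.0219), and this call was lost without WT replicate 2 or 3 or KO2 replicate 1 or 2 (adjusted p = 0.0625 to 0.0770). In KO1 *Cxcr4* did not pass (adjusted p = 0.113), and over both clones its log2 fold change was 0.97 (standard error 0.37, adjusted p = 0.0584), or 1.37 without WT replicate 1 (adjusted p = 0.0325).

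*Cxcl16* moved the other way. It encodes a membrane-bound chemokine for Cxcr6 that is also a scavenger receptor, and lies at chr11:70453983-70459984. It stood at 124, 107 and 159 CPM in WT, at 3.55, 3.04 and 3.84 CPM in KO1, and at 36.0, 37.4 and 24.9 CPM in KO2. The order WT, KO2, KO1 held for every library. The fall was 37.4-fold in KO1 (log2 fold change -5.23, standard error 0.23, adjusted p = 1.91e-07) and 3.96-fold in KO2 (-1.99, standard error 0.20, adjusted p = 3.03e-05), and the clones differed by -3.24 (standard error 0.21, adjusted p = 9.11e-06). Over both clones together the log2 fold change was -2.84 (standard error 0.82, adjusted p = 0.0201), and without WT replicate 3 it was -2.68 (adjusted p = 0.0601). Its receptor gene *Cxcr6* had 17, 6 and 20 counts in the KO2 libraries and no count in the other 6 libraries, too few to be tested. Against a limit of 3 counts per library, *Cxcr6* was at least 4.04-fold higher in KO2 than in WT.

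*Cxcl13*, which attracts B cells through Cxcr5, was seen almost entirely in WT, at 24.7, 1.20 and 4.69 CPM. The clone libraries held 3 counts in KO1 replicate 1, 1 count in KO2 replicate 3 and none elsewhere. WT was thus above every clone library but itself spread over a 20.2-fold range. The ratio of summed counts, scaled by summed library size, was 1027 in favor of WT against KO1 (95% interval 351 to 4981, covering counting error only). Against KO2 it was 2689 (482 to 106256). Both falls passed the test (adjusted p = 4.4e-04 and 5.12e-04), as did that over both clones (adjusted p = 1.78e-04). The fitted log2 value in KO1, -9.40, became -7.59 without WT replicate 1, -9.99 without WT replicate 2, -12.64 without KO1 replicate 1 and -8.69 without KO1 replicate 2. In KO2 it was -10.57, or -8.75 without WT replicate 1 and -12.65 without KO2 replicate 3, and over both clones -9.82, or -8.02 without WT replicate 1 and -11.18 without KO1 replicate 1. Each of these kept its call. *Cxcl17*, a chemokine of mucosal epithelia, was at 0.398, 0.553 and 1.95 CPM in WT, at 0.239, 0.146 and 0.0798 CPM in KO1, and at 0.137, 0.170 and 0.118 CPM in KO2. All WT libraries lay above all clone libraries. Its log2 fold change was -2.62 in KO1 (standard error 0.65, adjusted p = 0.00653) and -2.75 in KO2 (standard error 0.67, adjusted p = 0.00669), and over both clones -2.69 (standard error 0.52, adjusted p = 0.00274). Without WT replicate 3, the highest library, these were -1.60, -1.72 and -1.67, each still past the threshold. *Cxcl14* had no count in any library.

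**Figure D2:**
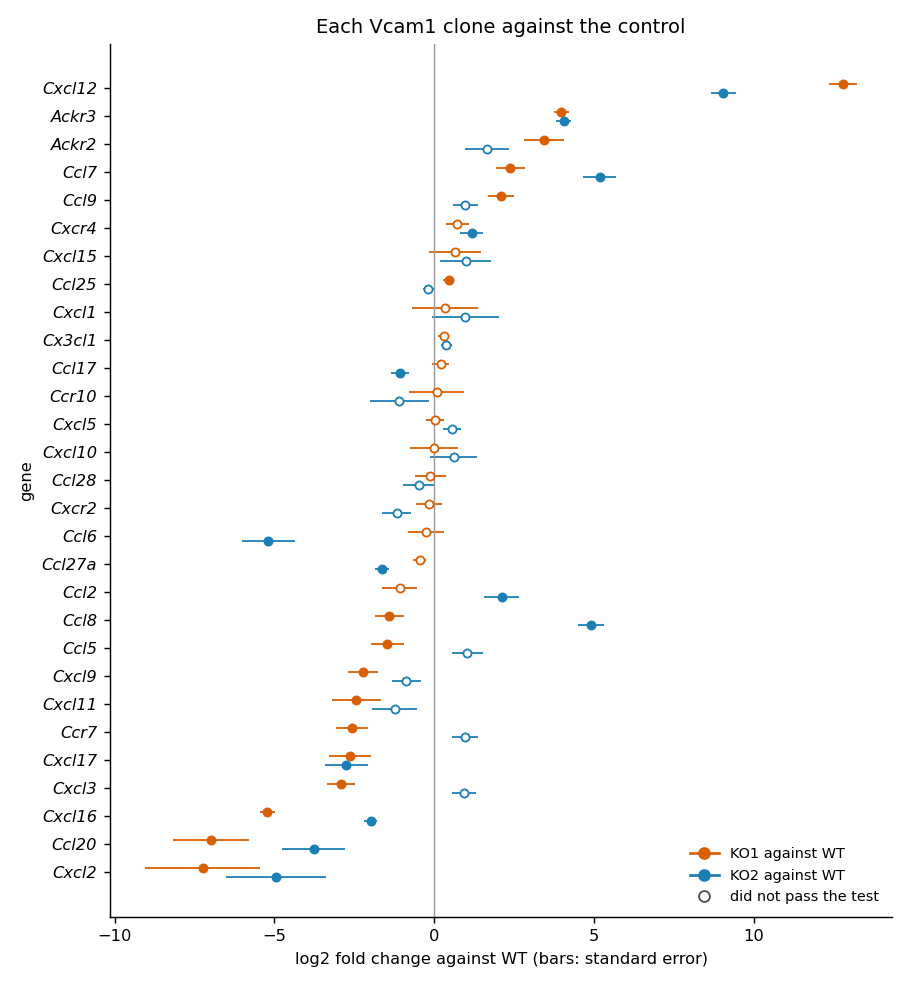
Log2 fold change of KO1 (orange) and KO2 (blue) against WT for 29 tested members, with bars of 1 standard error, filled where the adjusted p was under 0.05. *Ackr1*, *Ackr4*, *Cxcl13* and *Cxcr3* are left out because a group held at most 3 counts summed over its libraries. *Cxcl12* and *Ackr3* lie right of 0 in both clones and *Cxcl2*, *Ccl20*, *Cxcl16* and *Cxcl17* left of it, while *Ccl8* lies on opposite sides.

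The chemokines with an ELR motif, which draw neutrophils through Cxcr2, comprise 5 genes named by number, which lie together at chr5:90759360-90905938. They differed in direction and in how far libraries of a group spread. *Cxcl2* was at 65.8, 1.38 and 54.9 CPM in WT, at 0.0449, 0.0834 and 0.718 CPM in KO1, and at 2.86, 1.13 and 0 CPM in KO2. WT replicate 2 lay between the upper KO2 libraries, and the other WT libraries were far above all clone libraries. In KO1 the log2 fold change was -7.25 (standard error 1.79, adjusted p = 0.00626), and it was -4.95 in KO2 (standard error 1.56, adjusted p = 0.0241). The KO2 call was lost without WT replicate 1 or 3 or KO2 replicate 2 (adjusted p = 0.0531 to 0.0797). Leaving out WT replicate 2 gave -7.89 in KO1 and -5.55 in KO2, leaving out KO1 replicate 3 gave -9.21 in KO1, and leaving out KO2 replicate 1 gave -6.19 in KO2. With limma-voom, the study's own test, neither clone passed for *Cxcl2* (adjusted p = 0.0669 in KO1 and 0.0858 in KO2). Over both clones together the log2 fold change was -5.67 (standard error 1.47, adjusted p = 0.0120), and it was -6.28 without WT replicate 2 and -6.74 without KO2 replicate 1.

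*Cxcl3* separated the clones. It was at 1.19, 0.461 and 0.683 CPM in WT, at 0.105, 0.104 and 0.0957 CPM in KO1, and at 1.95, 1.10 and 1.51 CPM in KO2. KO1 lay below both other groups, while WT and KO2 overlapped. KO1 was below WT by -2.93 on the log2 scale (standard error 0.44, adjusted p = 3.36e-04) and below KO2 by -3.88 (standard error 0.45, adjusted p = 2.27e-04). Of the 31-base words in *Cxcl3* transcripts, 5.46% occur in transcripts of other genes, most of them in *Cxcl2*. The WT libraries held 8257, 75 and 4344 counts of *Cxcl2*, but only 149, 25 and 54 of *Cxcl3*. How much of the *Cxcl3* level in WT, and so of its fall in KO1, came from shared reads was not tested.

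*Cxcl1* ranked 2 or 3 among the members per kilobase of exon in every group, at 130 CPM per kilobase in WT, 163 in KO1 and 255 in KO2. Its libraries were at 370, 27.3 and 332 CPM in WT, at 114, 280 and 524 CPM in KO1, and at 876, 512 and 47.0 CPM in KO2. The ranges of the 3 groups overlapped, and the spread inside WT was 13.6-fold. The log2 fold change over both clones was 0.69 (standard error 0.95, adjusted p = 0.584), which leaves differences in either direction possible. *Cxcl5* was at 57.7, 29.6 and 70.4 CPM in WT, at 45.1, 51.2 and 62.8 CPM in KO1, and at 91.7, 73.0 and 65.5 CPM in KO2, again with overlap between WT and each clone. Its log2 fold change over both clones was 0.30 (standard error 0.29, adjusted p = 0.428). *Cxcl15*, known mainly from lung, stayed between 0.0296 and 0.428 CPM and passed in no comparison. *Cxcr2*, the receptor of this group, stayed between 0.0424 and 0.219 CPM and passed in none either, with the smallest adjusted p in KO2 against WT (0.0528).

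The ligands of Cxcr3, which are induced by interferon and draw T cells and natural killer cells, lie at chr5:92321347-92365485. *Cxcl9* was at 1.05, 0.646 and 0.796 CPM in WT, at 0.105, 0.104 and 0.335 CPM in KO1, and at 0.548, 0.452 and 0.370 CPM in KO2. Every KO1 library was below every KO2 library and every KO2 library was below WT, but only the fall in KO1 passed the test (log2 fold change -2.23, standard error 0.48, adjusted p = 0.00295), and it was -2.98 without KO1 replicate 3. *Cxcl11*, which GENCODE vM21 annotates as a polymorphic pseudogene, was at 0.255, 0.258 and 0.164 CPM in WT, at 0.0748, 0.0313 and 0.0160 CPM in KO1, and at 0.206, 0.0141 and 0.0739 CPM in KO2. Its fall in KO1 (-2.44, standard error 0.77, adjusted p = 0.0205) was lost without WT replicate 1 or KO1 replicate 2 or 3 (adjusted p = 0.0582 to 0.0747), and was -3.15 without KO1 replicate 1. *Cxcl10* was the most abundant of the 3 but passed in no comparison, at 8.63, 2.10 and 8.94 CPM in WT, 2.17, 3.54 and 14.1 CPM in KO1, and 15.1, 9.81 and 5.26 CPM in KO2.

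The receptor gene of this group, *Cxcr3* at chrX:101731535-101734269, was detected almost entirely in KO2. It was at 1.71, 1.89 and 1.67 CPM in KO2, at 0.0126 CPM in WT replicate 3 and 0.0160 CPM in KO1 replicate 3, each of which is 1 count, and at 0 in the other libraries. All KO2 libraries therefore stood apart from the other 6. The ratio of summed counts, scaled by summed library size, was 456 for KO2 against WT (95% interval 81.4 to 18082, counting error only). For KO2 against KO1 it was 397 (70.9 to 15742). Both differences passed the test (adjusted p = 1.24e-05 and 5.00e-05). Their fitted log2 values, 8.31 and -8.16, moved with the single counts, to 7.58 without WT replicate 1, 10.05 without WT replicate 3, -7.54 without KO1 replicate 2 and -10.09 without KO1 replicate 3. The comparison of both clones together with WT did not pass (adjusted p = 0.0523).

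The CC chemokines that draw monocytes through Ccr2 were the group in which KO2 stood out. *Ccl2*, *Ccl7* and *Ccl8* lie with *Ccl11*, *Ccl12* and *Ccl1* at chr11:82035571-82305690, and the last 3 reached at most 8 counts in any library. *Ccl2*, also called MCP-1, was at 429, 83.8 and 357 CPM in WT, at 89.2, 197 and 126 CPM in KO1, and at 1631, 1346 and 781 CPM in KO2. KO2 lay above all other libraries, while KO1 lay between WT replicate 2 and the other WT libraries. It rose 4.32-fold in KO2 (log2 fold change 2.11, standard error 0.56, adjusted p = 0.0105), did not pass in KO1 (adjusted p = 0.112), and differed between the clones by -3.19 (standard error 0.58, adjusted p = 0.00259). Over both clones together it did not pass (adjusted p = 0.339).

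*Ccl7*, or MCP-3 of the same cluster, was at 14.4, 5.70 and 10.5 CPM in WT, at 48.0, 86.4 and 25.7 CPM in KO1, and at 450, 378 and 288 CPM in KO2. The 3 groups did not overlap. It rose 5.21-fold in KO1 (log2 fold change 2.38, standard error 0.45, adjusted p = 0.00146) and 36.2-fold in KO2 (5.18, standard error 0.51, adjusted p = 3.06e-05), with a clone difference of -2.80 (standard error 0.46, adjusted p = 0.00155). Over both clones its log2 fold change was 4.38 (standard error 1.06, adjusted p = 0.00864). *Ccl8*, or MCP-2, was at 0.175, 0.203 and 0.240 CPM in WT, at 0.150, 0.0521 and 0.0319 CPM in KO1, and at 5.50, 6.47 and 6.67 CPM in KO2. KO2 was far above WT and KO1 just below it. The rise in KO2 was 30.1-fold (4.91, standard error 0.41, adjusted p = 1.03e-05) and the clones differed by -6.31 (standard error 0.46, adjusted p = 1.63e-05), or by -7.14 without KO1 replicate 1. The fall in KO1 (-1.40, standard error 0.46, adjusted p = 0.0246) was lost without WT replicate 3 or KO1 replicate 2 or 3 (adjusted p = 0.0597 to 0.0931), and was -2.24 without KO1 replicate 1. Over the 3 tested genes of the group, the median log2 fold change was 4.91 in KO2 and -1.08 in KO1. Their receptor gene *Ccr2* had at most 14 counts in a library and was not tested.

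The inflammatory CC chemokines each had a pattern of its own. *Ccl9*, a ligand of Ccr1 in the mouse, was at 14.2, 24.5 and 11.6 CPM in WT, at 80.9, 102 and 31.6 CPM in KO1, and at 33.2, 34.3 and 31.1 CPM in KO2. All clone libraries lay above WT, and KO1 replicate 3 lay within KO2. The rise in KO1 was 4.28-fold (log2 fold change 2.10, standard error 0.41, adjusted p = 0.00162), KO2 did not pass (adjusted p = 0.0651), and over both clones the log2 fold change was 1.64 (standard error 0.50, adjusted p = 0.0254). This last call was lost without WT replicate 1 or 3 (adjusted p = 0.0962 and 0.0989). The difference between the clones (1.12, adjusted p = 0.0487) was lost without any 1 library other than WT replicate 2 or KO1 replicate 3 (adjusted p = 0.0509 to 0.165).

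*Ccl6*, the neighbor of *Ccl9* on chromosome 11, fell in KO2. It was at 0.653, 0.258 and 1.47 CPM in WT, at 0.464, 0.511 and 1.05 CPM in KO1, and at 0.0171, 0.0283 and 0.0148 CPM in KO2. WT and KO1 overlapped, and all KO2 libraries were below both. The fall in KO2 was 36.5-fold (log2 fold change -5.19, standard error 0.82, adjusted p = 5.94e-04), or -4.42 on the log2 scale without WT replicate 3, and KO1 exceeded KO2 by 4.94 (standard error 0.83, adjusted p = 0.00170). *Ccl5*, or RANTES, which draws T cells and monocytes, was at 1.70, 1.77 and 1.11 CPM in WT, at 1.03, 0.188 and 0.447 CPM in KO1, and at 3.20, 3.60 and 2.62 CPM in KO2. The order was KO1, WT, KO2 with no overlap. The clones differed by -2.51 (standard error 0.53, adjusted p = 0.00514), or by -3.38 without KO1 replicate 1. KO2 did not pass against WT (adjusted p = 0.107), and the fall in KO1 (-1.47, standard error 0.52, adjusted p = 0.0321) was lost without WT replicate 1 or 2 or KO1 replicate 2 or 3 (adjusted p = 0.0601 to 0.0792) and was -2.34 without KO1 replicate 1. *Ccl3* and *Ccl4* had at most 2 and 4 counts.

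Among the remaining CC chemokines, *Ccl20* changed most. It draws Th17 cells and immature dendritic cells through Ccr6 and lies at chr1:83116766-83119167. It was at 73.8, 64.1 and 76.3 CPM in WT, at 0.120, 0.177 and 1.47 CPM in KO1, and at 10.0, 5.23 and 0.503 CPM in KO2. WT was tight and above all clone libraries, and the clone libraries spread widely. Its log2 fold change was -6.98 in KO1 (standard error 1.18, adjusted p = 7.14e-04), -3.77 in KO2 (standard error 0.99, adjusted p = 0.0103) and -4.61 over both (standard error 1.17, adjusted p = 0.0109). It was -8.85 in KO1 without KO1 replicate 3, and -4.66 in KO2 and -5.61 over both without KO2 replicate 1. The difference between the clones (-3.21, adjusted p = 0.0363) was lost without WT replicate 1 or 3, KO1 replicate 1 or 2, or KO2 replicate 1 or 2 (adjusted p = 0.0505 to 0.116), was -5.09 without KO1 replicate 3, and was -3.80 without KO2 replicate 3. *Ccr6* had at most 2 counts.

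*Ccl27a*, a ligand of Ccr10, was at 7.10, 5.55 and 7.07 CPM in WT, at 4.83, 3.80 and 5.78 CPM in KO1, and at 2.24, 2.21 and 1.89 CPM in KO2. KO2 was below every other library, and WT and KO1 overlapped. The log2 fold change in KO2 was -1.64 (standard error 0.22, adjusted p = 1.87e-04) and KO1 exceeded KO2 by 1.18 (standard error 0.21, adjusted p = 0.00252). Of its 31-base transcript words, 57% occur in transcripts of other genes, so that its level is uncertain. *Ccl17*, which acts on Ccr4, was at 0.892, 0.609 and 0.556 CPM in WT, at 0.823, 0.793 and 0.766 CPM in KO1, and at 0.308, 0.353 and 0.325 CPM in KO2. KO2 lay below all others. Its log2 value against WT of -1.06 (standard error 0.29, adjusted p = 0.0119) became -0.82 without WT replicate 1 (adjusted p = 0.0600). KO1 exceeded KO2 by 1.27 (standard error 0.29, adjusted p = 0.00768). *Ccl25*, the ligand of Ccr9, was at 4.56, 4.28 and 5.44 CPM in WT, at 6.05, 6.41 and 7.15 CPM in KO1, and at 4.32, 4.04 and 4.24 CPM in KO2. KO1 was above all other libraries by a small margin. Its rise of 0.46 against WT (adjusted p = 0.0390) was lost without any 1 library other than WT replicate 3 (adjusted p = 0.0647 to 0.155), and its excess of 0.64 over KO2 (adjusted p = 0.0152) was lost without KO2 replicate 1 or 2 (adjusted p = 0.0580 and 0.0648). *Ccl28*, which also acts on Ccr10, stayed between 0.370 and 1.16 CPM and passed in no comparison.

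*Cx3cl1*, or fractalkine, a membrane-anchored chemokine that draws monocytes and natural killer cells through Cx3cr1, passed in no comparison. It was at 147, 94.6 and 155 CPM in WT, at 169, 160 and 160 CPM in KO1, and at 177, 180 and 161 CPM in KO2. The clone libraries all lay above WT, narrowly, and overlapped each other. The log2 fold change over both clones was 0.34 (standard error 0.16, adjusted p = 0.105). *Cx3cr1* had at most 22 counts in a library.

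**Figure D3:**
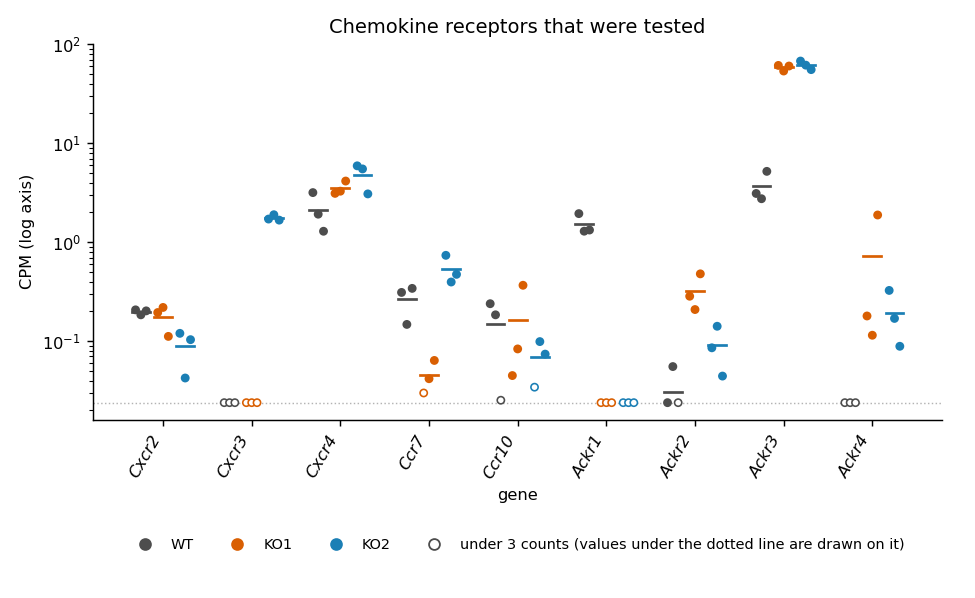
CPM of each library on a log axis for the 9 tested receptors, with 3 WT (gray), 3 KO1 (orange) and 3 KO2 (blue) libraries per gene and bars at group means. Open points hold under 3 counts, and values under the dotted line (3 counts in the deepest library) are drawn on it. *Ackr3* is higher in both clones, *Ackr1* has counts in WT only, and *Cxcr3* has at most 1 count in a library outside KO2.

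All 4 atypical receptors passed in the comparison of both clones together with WT, 3 higher and 1 lower, where 21.7% of all tested genes were higher and 21.2% lower. For *Ackr2* and *Ackr4* this call rested on single WT libraries. *Ackr1*, the Duffy antigen that binds inflammatory chemokines on red cells and venules, was at 1.94, 1.29 and 1.33 CPM in WT and had no count in any clone library. Against 3 counts per library it was at least 31.8-fold lower in KO1 and at least 29.6-fold lower in KO2 (adjusted p = 1.32e-04 and 1.80e-04, and 3.35e-04 over both). Of its 31-base words, 23% also occur in transcripts of *Cadm3*. *Ackr2*, a scavenger of inflammatory CC chemokines, was low throughout, at 0.0239, 0.0553 and 0.0126 CPM in WT, at 0.284, 0.209 and 0.479 CPM in KO1, and at 0.0856, 0.141 and 0.0444 CPM in KO2. KO1 was above all others and KO2 overlapped with WT. The rise in KO1 was 3.45 on the log2 scale (standard error 0.62, adjusted p = 0.00104), KO2 did not pass (adjusted p = 0.0705), and the clones differed by 1.80 (standard error 0.54, adjusted p = 0.0272), a call lost without KO1 replicate 1 or 3 or KO2 replicate 1 or 3 (adjusted p = 0.0540 to 0.0981). Over both clones it was 2.79 (adjusted p = 0.0251), a call lost without WT replicate 1 or 3 (adjusted p = 0.101 and 0.0954).

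*Ackr4*, which scavenges Ccl19, Ccl21 and Ccl25, was at 0.00796 and 0.0184 CPM in WT replicates 1 and 2, which is 1 count each, and at 0 in replicate 3. It was at 0.180, 0.115 and 1.88 CPM in KO1 and at 0.325, 0.170 and 0.0887 CPM in KO2. Every clone library was above WT, and KO1 replicate 3 was far above the rest. The ratio of summed counts to WT, scaled by summed library size, was 81.0 in KO1 (95% interval 22.0 to 675, counting error only). In KO2 it was 24.3 (6.28 to 208). The test gave an adjusted p of 0.00451 in KO1, 0.0401 in KO2 and 0.0161 over both. The KO2 call was lost without WT replicate 1, 2 or 3 or KO2 replicate 1 or 2 (adjusted p = 0.0654 to 0.117) and that over both without WT replicate 1 or 3 (adjusted p = 0.0670 and 0.0607). On the fitted log2 scale, the rise went from 6.25 to 3.97 in KO1 and from 5.59 to 4.19 over both without KO1 replicate 3.

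*Ccr7*, the receptor for Ccl19 and Ccl21 that guides cells to lymph nodes, was at 0.311, 0.148 and 0.341 CPM in WT, at 0.0299, 0.0417 and 0.0638 CPM in KO1, and at 0.737, 0.396 and 0.473 CPM in KO2. The 3 groups did not overlap, with KO1 lowest and KO2 highest. KO1 was below WT by -2.56 on the log2 scale (standard error 0.50, adjusted p = 0.00173) and below KO2 by -3.53 (standard error 0.50, adjusted p = 6.94e-04), while KO2 did not pass against WT (adjusted p = 0.0735). *Ccr10* stayed between 0.0253 and 0.367 CPM and passed in no comparison. Nearly all other receptors were at the limit of detection. *Ccr3*, *Ccr8* and *Cxcr1* had no count in any library, *Ccr1* had at most 1, *Ccr4* 4, *Cxcr5* 7 and *Ccr9* 8. The untested ligands not yet named were *Ccl19*, *Ccl21b*, *Ccl26* and *Ccl27b* with no count, *Ccl21a* with at most 1, and *Ccl22* and *Ccl24* with at most 4.

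**Figure D4:**
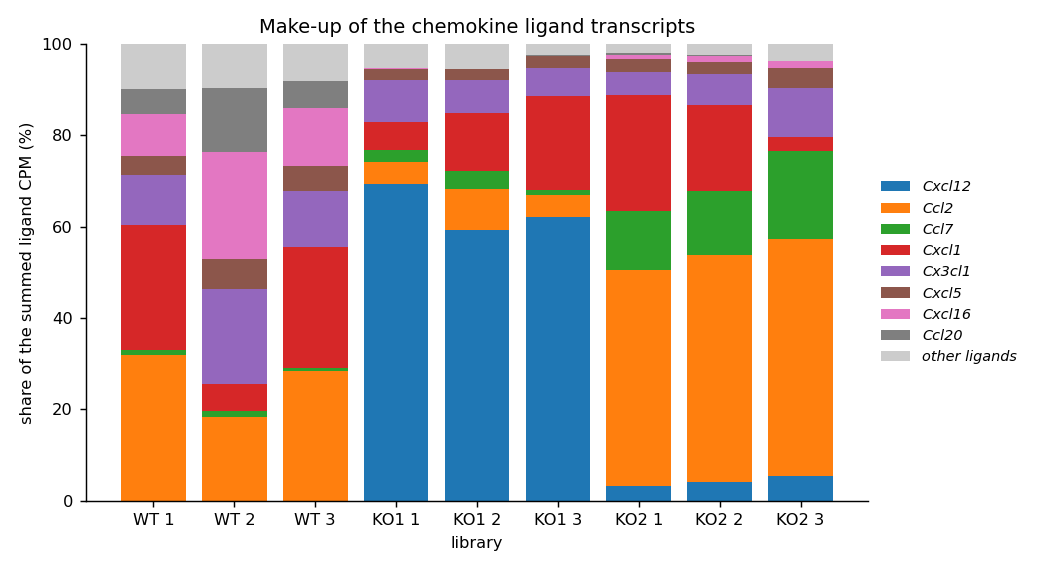
Share of each ligand in the summed CPM of all 37 ligands, in percent, for each of the 9 libraries. *Cxcl12* makes up 59.3% to 69.4% of the sum in KO1, and *Ccl2* with *Ccl7* makes up most of it in KO2.

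Added up, the 37 ligands came to 1349, 457 and 1260 CPM in WT, 1855, 2203 and 2547 CPM in KO1, and 3458, 2711 and 1506 CPM in KO2. Every clone library was above every WT library in this sum. Its make-up differed, as the plot of ligand shares shows. *Cxcl12* was 0.00602% to 0.0404% of the sum in WT, 59.3% to 69.4% in KO1 and 3.33% to 5.54% in KO2. *Ccl2* was 18.4% to 31.8% in WT, 4.81% to 8.94% in KO1 and 47.2% to 51.9% in KO2. *Cxcl16* and *Ccl20* together formed a visible part of the sum in WT alone, with 9.19% to 23.4% and 5.47% to 14.0%, where each had at most 1.65% and 0.290% in a clone library. Per kilobase of exon, *Ccl2* was the most abundant member in WT (255 CPM per kilobase) and KO2 (1101), and *Cxcl12* in KO1 (170), where *Cxcl1* was close (163) and stood above it in replicate 3.

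Members spread more between libraries of 1 group than genes did in general. The median range of a tested member was 1.08, 1.14 and 0.64 on the log2 scale in WT, KO1 and KO2, against 0.47, 0.48 and 0.37 for all tested genes. These medians were not matched for level. All ranges between libraries of a group were taken on log2 CPM with a count of about 2 added to each library. A filter at a mean of at least 1 CPM left 18 of the 33 members and 13091 of the 17672 genes, and low counts widen such ranges. In WT the widest were *Cxcl2* with a 46.7-fold range, *Cxcl13* and *Cxcl1*, and for *Cxcl1*, *Cxcl2*, *Cxcl10*, *Cxcl13* and *Ccl2* the lowest WT library was replicate 2. In KO2, *Cxcl1*, *Cxcl2*, *Cxcl10*, *Ccl2* and *Ccl20* were lowest in replicate 3, and in KO1, *Cxcl1*, *Cxcl2*, *Cxcl10* and *Ccl20* were highest in replicate 3. The genes *Zfp36* and *Zc3h12a*, picked from the list of regulators after their values were seen, had the same extremes. *Zfp36*, which encodes tristetraprolin, a protein that binds AU-rich messages and speeds their decay, was at 275, 49.4 and 428 CPM in WT, 245, 476 and 1151 CPM in KO1, and 330, 234 and 27.4 CPM in KO2. *Zc3h12a*, which encodes the RNase regnase-1, was at 59.9, 18.5 and 50.1 CPM in WT, 24.4, 53.3 and 92.8 CPM in KO1, and 17.4, 12.2 and 5.74 CPM in KO2. Whether the state of the cultures at harvest had a part in this was not tested.

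**Figure D5:**
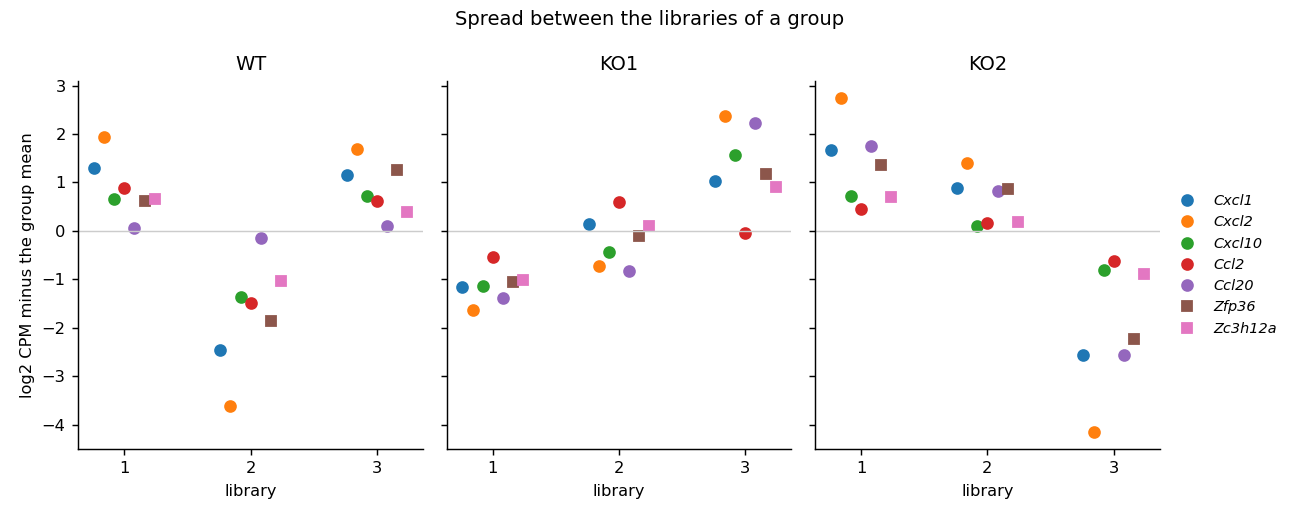
Log2 CPM of 5 chemokines (circles) and of *Zfp36* and *Zc3h12a* (squares) minus the mean of their own group, for each of 3 libraries in WT, KO1 and KO2, with 0 counts set to the level of 3 counts in the deepest library. WT replicate 2 and KO2 replicate 3 hold the low values and KO1 replicate 3 the high values, apart from *Ccl2*, which is highest in KO1 replicate 2.

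All promoters given from RefSeq (GRCm38.p6) were searched for the kB consensus motif, the 10-base DNA site bound by NF-kB. Both strands were read from 250 bases before to 50 after each start. Of 50 promoters given for 43 of the members, 10 held a match, 20%, against 4.51% of all 32851 promoters. That share is over all members with a promoter, receptors and genes without counts among them, and not over the chemokines that spread alike. A match describes letters and not binding, and whether the motif had a part in the spread was not tested. *Ackr2*, *Ccl9*, *Ccl27a*, *Ccr3* and *Ccr6* held the motif, as did the genes printed below. The 150 bases from 180 to 31 before the start are shown for the chemokines with a match that spread alike and for *Cxcl3*, their neighbor. *Cxcl13*, which was also lowest in WT replicate 2, held no match, and *Ccl2* was not among the promoters searched. The sequences are printed with matches in capitals; where matches on both strands overlap, capitals run over 11 bases.
Cxcl1, chr5:90891065-90891214, plus strand: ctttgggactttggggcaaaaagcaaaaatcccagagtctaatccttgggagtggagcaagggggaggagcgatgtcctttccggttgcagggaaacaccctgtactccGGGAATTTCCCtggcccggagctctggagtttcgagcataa
Cxcl2, chr5:90903719-90903868, plus strand: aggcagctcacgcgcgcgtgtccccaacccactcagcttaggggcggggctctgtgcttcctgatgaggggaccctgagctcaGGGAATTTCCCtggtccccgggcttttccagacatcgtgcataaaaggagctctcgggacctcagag
Cxcl3, chr5:90785921-90786070, plus strand: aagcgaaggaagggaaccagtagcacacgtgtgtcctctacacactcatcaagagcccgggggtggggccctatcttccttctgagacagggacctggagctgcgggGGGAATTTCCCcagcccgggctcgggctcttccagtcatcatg
Cxcl10, chr5:92348920-92349069, minus strand: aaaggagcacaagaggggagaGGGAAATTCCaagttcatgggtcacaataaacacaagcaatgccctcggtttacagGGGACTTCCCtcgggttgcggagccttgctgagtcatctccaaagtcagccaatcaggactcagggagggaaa
Ccl20, chr1:83116586-83116735, plus strand: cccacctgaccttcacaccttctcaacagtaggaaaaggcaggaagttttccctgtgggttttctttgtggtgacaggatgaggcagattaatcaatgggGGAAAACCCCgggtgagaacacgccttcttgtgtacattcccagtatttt

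The letters in capitals were the same in *Cxcl1*, *Cxcl2* and *Cxcl3*, at 71 to 61, 97 to 87 and 73 to 63 bases before the start. Their transcripts did not move alike. *Cxcl3* spread 2.49-fold in WT where *Cxcl1* spread 13.6-fold. Within KO1 the ranges were 1.07-fold for *Cxcl3* and 10.4-fold for *Cxcl2*. Few counts lie behind these KO1 ranges, 7, 10 and 6 of *Cxcl3* and 3, 8 and 45 of *Cxcl2*.

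Genes that act with chemokines were read from lists of 10 family genes with other names, 32 signalling genes and 15 genes that act on chemokine messages or proteins. In the comparison of both clones together with WT, 21.7% of all tested genes were higher and 21.2% lower. Of the family genes, 7 were tested, and over both clones 1 was higher and 2 lower. *Mif*, a ligand of Cxcr2, Cxcr4 and Cd74, rose (log2 fold change 0.77, standard error 0.21, adjusted p = 0.0150), and *Pf4*, a platelet chemokine, fell (-1.34, adjusted p = 0.0236). *Cd74* passed as lower (-1.72, adjusted p = 0.0440), but it was at 81.7, 18.0 and 18.1 CPM in WT and 20.4, 21.1 and 10.9 CPM in KO2, so that those groups overlapped, and KO2 alone did not pass (adjusted p = 0.111). Of 31 tested signalling genes, 10 were higher and 9 lower, with a median of -0.03 beside 0.07 for all tested genes. *Gnai1*, 1 of the 3 Gi alpha subunits, was at 6.66 to 8.76 CPM in WT and at most 0.224 CPM in the clones (log2 fold change -5.75, standard error 0.44, adjusted p = 1.13e-05), while *Gnai2*, the most abundant, was at 336 to 439 CPM in WT and 449 to 579 CPM in the clones. *Arrb2*, a beta-arrestin that couples Ackr3 and other receptors to uptake, fell (-1.39, standard error 0.16, adjusted p = 1.11e-04), as did *Gnb1* (-0.88, adjusted p = 4.85e-04) and *Rac2* (-3.04, adjusted p = 3.26e-04), and *Plcb4*, a phospholipase C downstream of G proteins, rose (4.98, standard error 0.51, adjusted p = 6.47e-05).

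Of 14 tested genes that act on chemokine messages or proteins, 5 were higher and 1 was lower over both clones, beside 21.7% and 21.2% of all tested genes. The lower one was *Dpp4*, the peptidase that cleaves and inactivates Cxcl12, at 14.6, 12.1 and 21.0 CPM in WT and 1 count in KO1 replicate 1, 1 count in KO2 replicate 1 and 0 in the other clone libraries (adjusted p = 1.97e-06). Both groups of clone libraries were thus at the limit of detection. *Mmp2*, a protease that also cleaves Cxcl12, was higher (3.50, standard error 0.49, adjusted p = 4.38e-04), and so were *Ndst1* (0.93, adjusted p = 4.84e-04) and *Ext1* (0.86, adjusted p = 6.37e-04), which build the heparan sulfate that holds chemokines at the cell surface, and *Tpst1* (1.01, adjusted p = 0.00187), which sulfates tyrosines of chemokine receptors. Protein levels were not measured, and whether any secreted chemokine followed its transcript was not tested.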

How the data were processed

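Libraries of stranded mRNA from PPTR cells (3 WT, 3 KO1 and 3 KO2) were sequenced in paired ends by the authors, who estimated counts per transcript with kallisto 0.46.1 (also named in the submitters' processing notes) on GENCODE vM24 transcripts of mm10. The deposited table holds estimated counts per gene symbol, not normalized, and all values were whole. How transcripts were summed to genes is not given in the sources used here. The paper states edgeR TMM and limma-voom for its own comparison.

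Members and all gene lists were chosen with earlier results of these data known. Counts were scaled with TMM, filtered with filterByExpr and tested with edgeR 4.0.16 (R 4.3.3), glmQLFit and glmQLFTest, in 1 fit with 3 groups for each clone and for the clones against each other, and in a fit with 2 groups for both clones against WT. Adjusted p values (Benjamini-Hochberg, threshold 0.05) are over all 17672 genes tested. The model was first tested on simulated data. Library totals of 53415907 to 125223073 put 3 counts, taken as the limit of detection, at 0.0239 to 0.0553 CPM. Ratios to groups with at most 3 counts summed over their libraries divide summed counts by summed TMM-scaled library sizes, so that deeper libraries weigh more. Their exact 95% intervals come from the summed counts and cover counting error only.

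Members were named, with each library's value where its mean reached 1 CPM in a group or it passed in a comparison. Of the other lists, the genes named had the smallest adjusted p over both clones (at most 5 a list). Exceptions, chosen after their values were seen, were *Zfp36*, *Zc3h12a*, *Gnai2*, *Dcn* and the leukocyte markers *Cd3e*, *Nkg7* and *Cd68*. Some items are not reported here. Exon lengths, positions and 31-base words came from GENCODE vM21 (GRCm38), and promoters from RefSeq. Alternatives were limma-voom 3.58.1, DESeq2 1.42.0, upper-quartile and RLE factors, no filter, a mean of at least 1 CPM, leaving out each library, fits on 2 groups, the average of the clones, and a test against a 2-fold change. Figures were drawn with matplotlib.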

Additional observations from a re-analysis of the deposited data

Results flagged for a closer look

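Members whose response differed between the clones, by the test of KO1 against KO2 in the fit with 3 groups (edgeR, quasi-likelihood, adjusted over all genes by Benjamini-Hochberg), were 16 of 33. Of all tested genes, 20.2% were higher in KO1 and 18.5% lower. As KO1 minus KO2 on the log2 scale, higher in KO1 were *Ccl6* by 4.94, *Cxcl12* by 3.74, *Ackr2* by 1.80, *Ccl17* by 1.27, *Ccl27a* by 1.18, *Ccl9* by 1.12 and *Ccl25* by 0.64. Lower in KO1 were *Cxcr3* (-8.16), *Ccl8* (-6.31), *Cxcl3* (-3.88), *Ccr7* (-3.53), *Cxcl16* (-3.24), *Ccl20* (-3.21), *Ccl2* (-3.19), *Ccl7* (-2.80) and *Ccl5* (-2.51). The value for *Cxcr3* is fitted to 1 count in KO1 and is not a bound, and the others are given with each library's level above. *Ackr2*, *Ccl20*, *Ccl25* and *Ccl9* lost this call when single libraries were left out, as given with their levels. *Ccl8* was called on opposite sides of WT in the 2 clones, but the KO1 side (-1.40, adjusted p = 0.0246) was lost without WT replicate 3 or KO1 replicate 2 or 3 (adjusted p = 0.0597 to 0.0931). Each clone descends from 1 cell, and a difference between clones cannot be told apart from a difference between founder cells. No tested member had a single library standing apart among the 6 clone libraries by Dixon's criterion on the log2 CPM scale. The criterion took KO1 and KO2 as 1 set, so that a difference between the clones can hide a stray library within a clone. *Ackr4* in KO1, at 0.180, 0.115 and 1.88 CPM, was not flagged.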

How the results depend on the processing

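Members called that kept their call in every alternative run that tested them were 14 of 19 in KO1 against WT and 13 of 17 in KO2 against WT. Between the clones they were 12 of 16, and over both clones 8 of 12. Runs whose filter dropped a member were not counted against it. A filter at a mean of at least 1 CPM left 18 members to test, of which 11, 11 and 10 were called in KO1 against WT, KO2 against WT and KO1 against KO2, and all of these were among the calls above. Of all 13091 genes left by that filter, 8194, 7189 and 5614 were called. Taking the average of the clone contrasts, so that differences between clones no longer counted as spread, gave 20 members over both clones in place of 12, and 10464 of 17672 genes in place of 7591. A test against a 2-fold change called 2973 genes over both clones, and 9 members. Leaving out single libraries gave 15 to 19, 15 to 21, 12 to 19 and 8 to 14 members in the 4 comparisons. *Cxcl5* over both clones, which did not pass, lay between -0.026 and 0.56 when single libraries were left out. Of 68 comparisons of members that did not pass, 22 passed under at least 1 alternative and 22 changed sign under at least 1. *Cxcl3* was the 1 member that passed over both clones with the sign turned (log2 fold change -0.99, adjusted p = 0.0276, with the average of the clone contrasts). That alternative averages the log2 fold changes of the clones against WT, which for *Cxcl3* were -2.93 in KO1 and 0.95 in KO2. *Cxcr4* over both clones passed with DESeq2 (0.93, adjusted p = 0.0226) and with the average of the clone contrasts (0.95, adjusted p = 0.0298). Apart from single libraries, calls were lost for *Ccl25* (RLE factors, no filter, 2 groups), *Ccl5* and *Ccl8* in KO1 (2 groups), *Ccl20* and *Ccl9* between the clones (limma-voom, 2 groups), *Cxcl2* in each clone (limma-voom), and *Ackr2*, *Ccl9* and *Cxcl16* over both clones (the 2-fold test). Scalings moved the median of all genes by less than 0.1. No paired analysis was possible because the labels give no replicate numbers shared between groups. *Ackr2*, with at most 30 counts in a library, and *Cxcl11*, with at most 32, have few counts behind their values.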
